A study of Homo sapiens with 8 samples.

Results

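The genes described here are the HOX genes of the 4 human HOX clusters together with HOTAIRM1, a long non-coding RNA of the HOXA cluster. They were taken from the GENCODE 29 symbols as genes named HOXA, HOXB, HOXC or HOXD with a number, plus HOTAIRM1, 39 symbols in all. Because HOXC5 is listed under 2 identifiers, they fill 40 of the 58780 gene rows of each library. RNA was measured in H1, an established human embryonic stem cell line, at 4 stages of a directed differentiation. These were undifferentiated cells (hESC), the definitive endoderm (hDE) made from them, then anterior foregut endoderm (hAFE), and last pharyngeal foregut endoderm (hPFE), with 2 libraries each and 8 in all. All groups are H1 cells, and the labels used here name no genetic change and give no culture times or doses. By their titles, the hESC and hDE libraries were taken over from earlier work while those of hAFE and hPFE were not, so in hAFE against hDE and in hPFE against hESC the stage cannot be told apart from where the libraries came from. Nothing in the labels ties the pair of libraries of a stage to separate cultures, so p-values measure only the spread of these libraries, and that spread may be technical.

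HOX genes encode homeodomain transcription factors that give cells a position along the head to tail axis. In each cluster the genes with low numbers lie at the 3′ end and are the first and most anterior to be switched on, and those with high numbers follow later and nearer the tail. Retinoic acid, a derivative of vitamin A, switches on the 3′ genes, while Polycomb complexes keep clusters silent. In the embryonic pharynx, paralog groups 1 to 4 mark the more posterior arches and pouches, and the most anterior pharyngeal endoderm has none of these genes on.

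On hg38 the 10 HOXA genes described here and HOTAIRM1 span chr7:27095647-27200106 (104.5 kb), with the HOX genes on the minus strand, and the HOXB cluster spans chr17:48528526-48729178 (200.7 kb, 10 genes on the minus strand). The HOXC cluster spans chr12:53938765-54056030 (117.3 kb, 9 genes on the plus strand) and the HOXD cluster chr2:176092891-176190907 (98.0 kb, 9 genes on the plus strand). HOTAIRM1 lies at chr7:27095647-27100265 on the plus strand, beside HOXA2 near the 3′ end of the cluster. Exons overlap on the same strand, so that reads can be split and separate values are uncertain to that extent, between HOXB3, HOXB4 and HOXB6, between HOXC4, HOXC5, HOXC6 and HOXC9, and between HOXD10 and HOXD11. They also overlap between HOXA9 or HOXA10 and the gene AC004080.3, between HOXA3, HOXA4 or HOXA6 and AC004080.5 or AC004080.6, between HOXC5 or HOXC10 and AC012531.2, between HOXB4 and AC103702.1, and between HOXD3 or HOXD4 and AC009336.2. Of the exonic bases of HOTAIRM1 43.2% are shared with short entries that carry Rfam identifiers, and of those of HOXA3 9.24% are shared. HOXA9, HOXB4 and HOXD1 overlap microRNA entries.

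Libraries held 12687161 to 17802900 expected counts. Levels are given as CPM, which sets counts against the TMM-scaled library size, and levels of different genes are compared as TPM, which allows for length. A gene with 0 counts in both libraries of a stage can still lie at up to 3 counts, a level of 0.0874 CPM for hESC, 0.12 for hDE, 0.104 for hAFE and 0.0989 CPM for hPFE. These limits and all counting intervals cover counting error only. In the bulk libraries, fewer cells of a type and less RNA per cell cannot be told apart. The defining markers of each stage were present. The stem cell gene POU5F1 was at 858.0 and 942.2 CPM in hESC, the endoderm factor SOX17 at 126.5 and 148.5 CPM in hDE, and the foregut factor FOXA1 at 53.7 and 51.1 CPM in hPFE and at 78.6 and 26.7 CPM in hAFE. The pharyngeal pouch gene PAX1 was at 26.5 and 17.3 CPM in hPFE, against 0 and 0.658 CPM in hAFE. Most of the 10 foregut and pharyngeal markers did not separate these 2 stages. Of the 9 tested by edgeR, 1 was higher in hPFE at an adjusted p under 0.05, 0 were lower and 8 did not pass. Their median log2 fold change was -0.01.

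The HOX clusters were close to silent at the 2 early stages. Over all 40 rows the hESC libraries held 8 and 4 counts, and no row had more than 2 over both libraries. The hDE libraries held 15 and 18 counts, and HOXD13, a gene of the far 5′ end that is best known from limbs and the genital region, was the only row above 3, with 7 counts in each library. HOTAIRM1 had 0 counts in all 4 of these libraries. Rows with 0 counts in both libraries were 31 for hESC, 28 for hDE, 20 for hAFE and 5 for hPFE. In single libraries they were 34 and 36 for hESC, 33 and 29 for hDE, 22 and 31 for hAFE and 8 and 24 for hPFE. The low hPFE number thus rests on replicate 1, since hPFE replicate 2 had more rows at 0 than hAFE replicate 1.

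**Figure D1:**
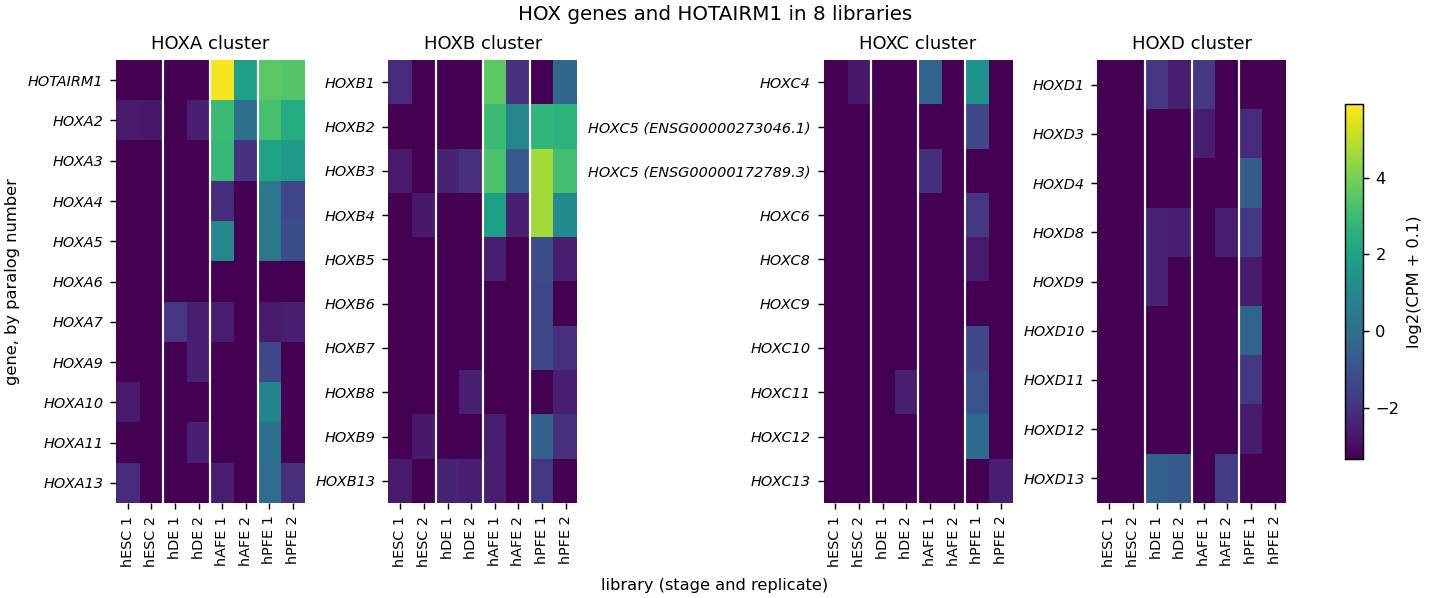
Level of each gene row in each library, as log2(CPM + 0.1), in 4 panels by cluster with genes in order of paralog number and HOTAIRM1 above HOXA2. Columns are the 8 libraries from hESC to hPFE and white lines separate the stages. The hESC and hDE columns are dark, several 3′ genes of HOXA and HOXB light up in hAFE and hPFE, and the lower parts of all 4 panels are lit mainly in hPFE replicate 1.

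Only 9 of the 40 rows passed the filter on low counts and could be tested, namely HOTAIRM1, HOXA2, HOXA3, HOXA5, HOXB1, HOXB2, HOXB3, HOXB4 and HOXC4. These rows passed through their counts in hAFE and hPFE, so a higher value there than in hESC or hDE was bound to be found among them. A gene is called changed where the adjusted p from edgeR's quasi-likelihood test, with Benjamini-Hochberg adjustment over 17446 genes, is under 0.05. In hDE against hESC 0 tested members were called higher or lower, also with DESeq2, and 0 had an unadjusted p under 0.05. Each had at most 3 counts over the 2 libraries of either stage, so this comparison could not show a change in them. HOXD13, with 14 counts in hDE against 0 in hESC, was not tested. Of all genes 20.3% were called higher and 21.6% lower in hDE, 41.9% in all.

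In hAFE the members that rose against hDE lay near the 3′ ends of the HOXA and HOXB clusters. They were HOTAIRM1, HOXA2, HOXB2 and HOXB3, 4 of the 9 tested members, and none fell. Of all genes 15.0% were called higher, and 30.2% either way. HOTAIRM1, which in human myeloid cells takes part in switching on neighbouring HOXA genes, had 55.5 and 3.73 CPM in hAFE against 0 and 0 in hDE. It was at least 258.2-fold higher (adjusted p = 0.0163 by edgeR), and the lower hAFE library still lay far above each hDE library.

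The group 2 genes, which pattern the hindbrain and the neural crest of the second arch, were lower. HOXA2 had 7.73 and 0.951 CPM in hAFE against 0 and 0.0724 CPM in hDE. Set against that single count, its ratio was 113.0 (exact 95% binomial interval 19.9 to 4497.2, adjusted p = 0.0106 by edgeR). HOXB2 had 8.0 and 1.83 CPM in hAFE against 0 and 0 in hDE and was at least 42.3-fold higher (adjusted p = 0.00763 by edgeR). The 2 hAFE libraries were nearer to each other in HOXB2 than in any other tested member. HOXB3, a group 3 gene, had 9.58 and 0.512 CPM in hAFE against 0.089 and 0.145 CPM in hDE (ratio 44.0, 14.8 to 215.9, adjusted p = 0.035 by edgeR). Leaving out hAFE replicate 1 ended the call of HOXB3 (log2 fold change 2.02, adjusted p = 0.275 by edgeR). In this and every other fit without one library, the lone library of its stage is assumed to vary like those of the other stages.

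The other 5 tested members did not pass. HOXA3, a group 3 gene needed in mice for the thymus and parathyroid that grow from the pharyngeal pouches, had 7.14 and 0.146 CPM in hAFE against 0 and 0 in hDE (adjusted p = 0.0591 by edgeR). HOXB1, the group 1 gene of the HOXB cluster, had 11.9 and 0.146 CPM in hAFE against 0 and 0 in hDE (adjusted p = 0.0651 by edgeR). HOXB4, of group 4, had 3.70 and 0.0731 CPM in hAFE against 0 and 0 in hDE (adjusted p = 0.124 by edgeR). HOXA5 and HOXC4 had counts in 1 hAFE library alone, at 1.85 and 0.661 CPM. In each of these 5 genes 1 hAFE library was at or near the level of hDE and the other well above it. Of the members called, HOXB2 alone kept its call whichever hAFE or hDE library was left out. In each of these fits more members were tested, and fewer of all genes were called higher than with all 8 libraries. Without hAFE replicate 2, HOXA3, HOXA5, HOXB1 and HOXB4 were called as well.

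Promoter windows of 300 bases, from 250 before to 50 after the RefSeq gene start on GRCh38.p14, were held for 20 of the 39 symbols (27 windows). Shown are those of HOXA2, the best expressed of the matched members in hPFE, and of HOXB1, chosen after its values were seen as a 3′ gene that was high in 1 hAFE library and nearly absent from hPFE. HOXA3, with 7 windows, is not shown. Each is given 5′ to 3′ on the minus strand, at chr7:27102634-27102933 for HOXA2 and chr17:48530962-48531261 for HOXB1. Capitals mark matches to TGATNNAT, a joint site of PBX and HOX proteins, or to TGACAG, a MEIS site, each searched on both strands.
HOXA2: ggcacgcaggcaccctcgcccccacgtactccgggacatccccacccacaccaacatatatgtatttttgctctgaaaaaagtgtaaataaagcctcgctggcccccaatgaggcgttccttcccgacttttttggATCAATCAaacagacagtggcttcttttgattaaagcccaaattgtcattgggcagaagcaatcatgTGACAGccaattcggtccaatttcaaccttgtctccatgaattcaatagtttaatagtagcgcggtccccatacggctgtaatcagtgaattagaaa
HOXB1: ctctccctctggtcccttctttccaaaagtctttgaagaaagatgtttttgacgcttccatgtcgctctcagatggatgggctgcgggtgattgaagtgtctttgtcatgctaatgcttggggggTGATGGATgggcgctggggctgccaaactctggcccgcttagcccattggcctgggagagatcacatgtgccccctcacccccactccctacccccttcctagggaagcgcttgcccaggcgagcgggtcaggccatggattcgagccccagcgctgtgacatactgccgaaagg

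The HOXA2 window held the joint site in reverse at bases 137 to 144 and the MEIS site at bases 204 to 209, and the HOXB1 window held the joint site at bases 126 to 133. The joint site was in 3 of the 27 member windows and in 7.4% of all 35116 windows, and the MEIS site in 4 of the 27 and in 15.8% of all. A match says only that the letters are there. The windows of HOXB2, HOXB3, HOXB4 and HOTAIRM1 were not used here.

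**Figure D2:**
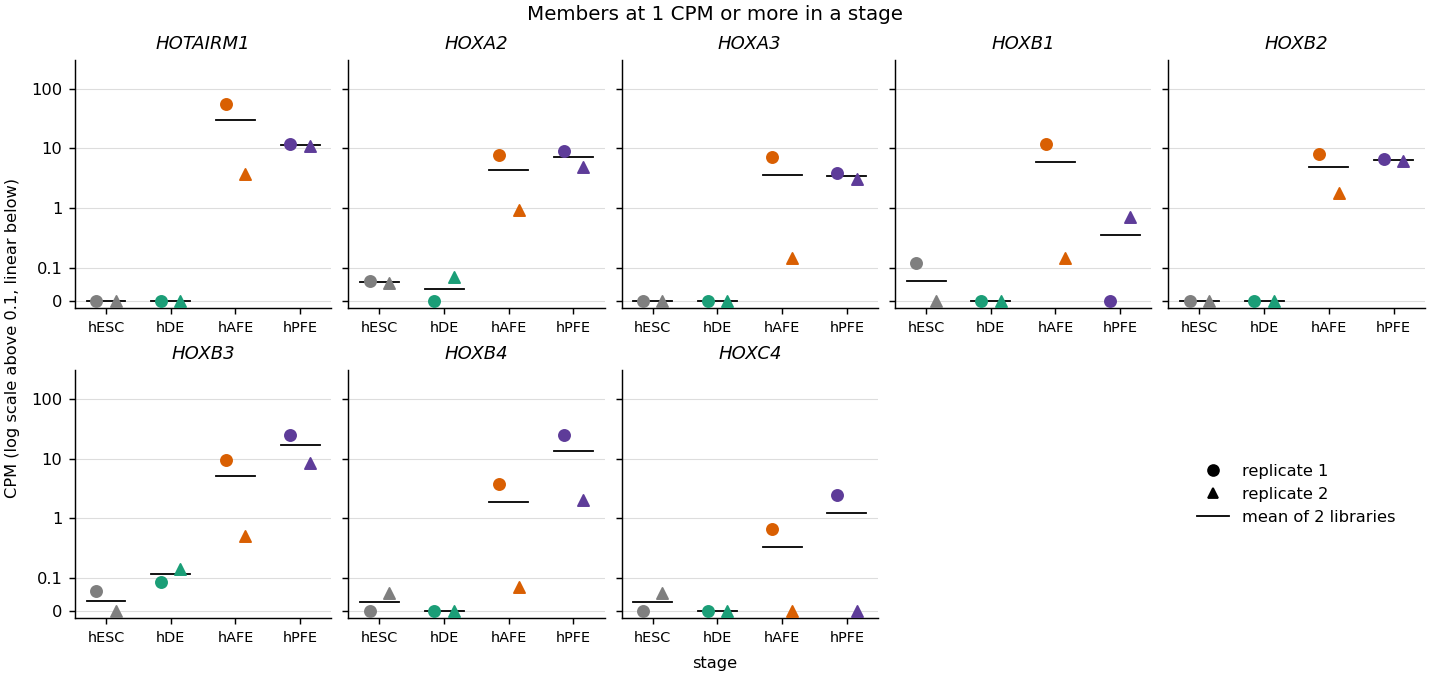
CPM of the 8 members that reached a mean of 1 CPM in at least one stage, by stage from hESC to hPFE, on an axis that is logarithmic above 0.1 and linear below. Circles are replicate 1, triangles replicate 2 and bars the mean of 2 libraries. In hAFE the circle lies above the triangle in all 8 panels, while in hPFE both symbols lie close together for HOTAIRM1, HOXA3 and HOXB2.

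The hAFE libraries differed from each other across the whole set. Replicate 1 held 1618 counts over the 40 rows and replicate 2 held 105. With 0.5 added to each count, all 9 members with at least 10 counts over the pair were at least 4-fold higher in replicate 1, where 2.00% of all genes with as many counts were, and 4.82% were that far apart either way. For HOXC4, with 10 and 0 counts, this rests on the added count, and set against 3 counts in replicate 2 it was at least 3.01-fold higher. The median log2 ratio of replicate 2 over replicate 1 was -4.25 over these 9 members and -0.01 over all genes. The ratio of replicate 1 over replicate 2 was 14.9 for HOTAIRM1 (exact 95% binomial interval 11.2 to 20.2) and 4.37 for HOXB2 (2.83 to 7.02). It was 81.3 for HOXB1 (22.2 to 676.7), where replicate 2 had 2 counts. The 2 libraries thus differed by far more than counting error in every member that could be compared.

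Other genes differed between the same 2 libraries. CYP26A1 and CYP26C1, which break down retinoic acid, were at 8.13 and 0.925 CPM in hAFE replicate 1 and at 414.2 and 157.3 CPM in replicate 2. CYP26B1, which has the same activity, was at 61.9 and 0.366 CPM. OTX2, a gene of the forebrain and of anterior endoderm, was at 17.0 and 332.6 CPM, and MEOX1, a gene of paraxial mesoderm, at 20.6 and 0.219 CPM. Over the whole list of 9 mesoderm and mesenchyme markers the sum was 21.6 CPM in hAFE replicate 1, nearly all of it MEOX1, and 1.10 CPM in replicate 2, with 5 and 3 of the 9 at 0. The 9 neural markers summed to 24.3 and 343.2 CPM, most of it OTX2 in replicate 2, and the 5 neural crest markers to 1.12 and 0.585 CPM with SOX10 and FOXD3 at or near 0. The 6 markers of surface ectoderm and amnion summed to 7.27 and 78.8 CPM with 2 at 0 in each library, most of it CGA at 4.56 and 69.0 CPM, and TP63 was at 1.32 and 7.75 CPM. The 10 foregut markers summed to 347.9 and 279.0 CPM. What part any of these play in the HOX difference was not tested. Replicate 1 held 13737594 counts over all genes and replicate 2 held 12687161.

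**Figure D3:**
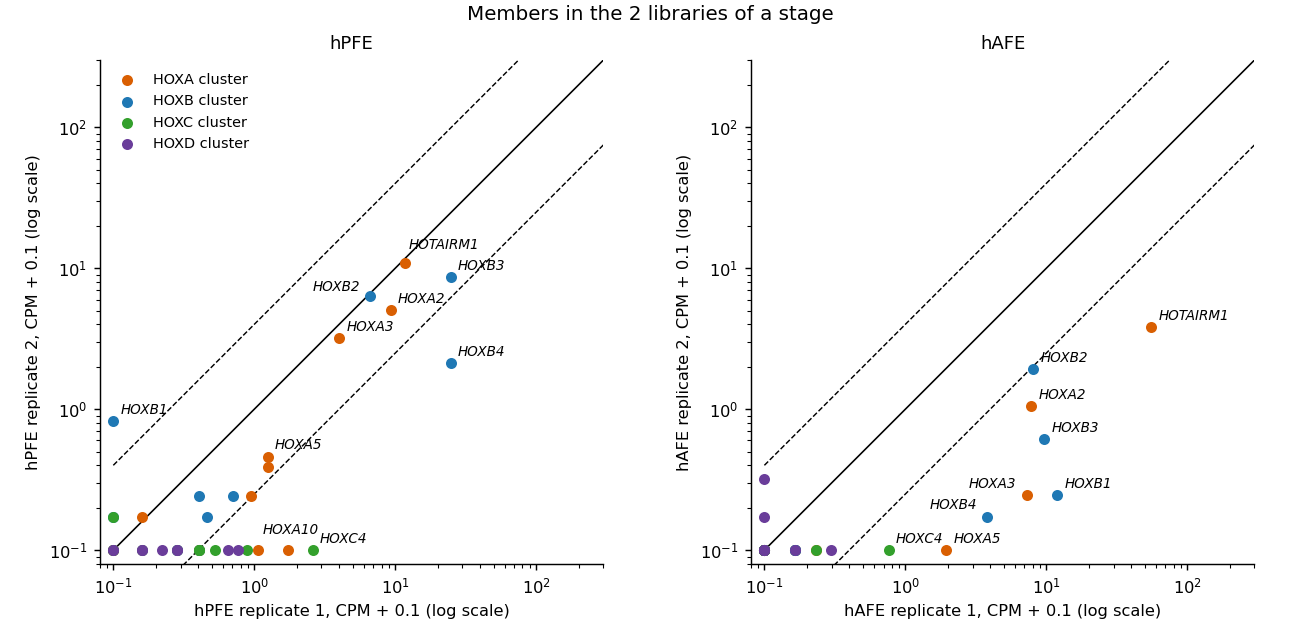
CPM + 0.1 of each gene row in replicate 1 (horizontal) and replicate 2 (vertical) of hPFE (left) and hAFE (right), both axes logarithmic, coloured by cluster. The solid line marks equal levels and the dashed lines a 4-fold difference. In hPFE HOXB2, HOXA3 and HOTAIRM1 lie near the solid line while HOXB1 lies above the upper dashed line, and in hAFE the labelled genes lie below the lower dashed line or on it.

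In hPFE HOTAIRM1, HOXA2, HOXA3, HOXB2, HOXB3 and HOXB4 were above 1 CPM in both libraries. Members with more than 3 counts over the stage numbered 24 in hPFE, against 9 in hAFE, 1 in hDE and 0 in hESC. By library they numbered 23 and 9 in hPFE, against 9 and 4 in hAFE, so without hPFE replicate 1 the number in hPFE was that of hAFE. HOTAIRM1 had 11.7 and 10.8 CPM, HOXB2 6.56 and 6.21 CPM, and HOXA3 3.89 and 3.10 CPM. These 3 genes differed between the hPFE libraries by no more than counting error, with a ratio of replicate 1 over replicate 2 of 1.08 (0.871 to 1.35), 1.06 (0.789 to 1.42) and 1.25 (0.838 to 1.89). HOXA2 had 9.17 and 4.98 CPM.

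HOXB3 and HOXB4 differed more, with 24.6 and 8.59 CPM for HOXB3 and 24.6 and 2.02 CPM for HOXB4. Their ratios were 2.86 (2.33 to 3.54) and 12.2 (8.31 to 18.6). HOXC4, the 3′ gene of the HOXC cluster, had 2.49 and 0 CPM, and HOXB1 had 0 and 0.722 CPM. HOXB1 was thus higher in replicate 2, while HOXB3, HOXB4 and HOXC4 were higher in replicate 1. Of the 16 members with at least 10 counts over the hPFE pair, 15 were higher in replicate 1, and 7 of them at least 4-fold with 0.5 added to each count, against 3.35% of all genes with as many counts. Of these 7, HOXA10, HOXA11, HOXC4, HOXC12 and HOXD10 had 0 counts in replicate 2. Set against 3 counts there, HOXC12 and HOXD10 were at least 3.65-fold and 3.08-fold higher. HOXA10, HOXA11 and HOXC4 were at least 7.57-fold, 4.49-fold and 11.5-fold higher. Either way, 8 of the 16 were 4-fold apart with 0.5 added, against 4.90% of all genes. For HOXB1, with 0 and 10 counts, this rests on the added count. The median log2 ratio of replicate 2 over replicate 1 was -1.84 over these 16 members and -0.88 over the 7 with at least 30 counts.

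By length, HOTAIRM1 was the most abundant member in both hPFE libraries, at 14.2 ± 3.19 TPM (SD, n = 2 here and in the levels that follow). HOXB3 followed at 4.66 ± 3.56 TPM, HOXB2 at 3.35 ± 0.658, HOXA2 at 2.82 ± 0.453, HOXB4 at 2.21 ± 2.45 and HOXA3 at 0.945 ± 0.177 TPM. Except for HOTAIRM1 against the next gene, neighbours in this order did not differ beyond their spread. In hAFE HOTAIRM1 came first with 60.3 and 3.69 TPM, while HOXB2 had 3.5 and 0.78 TPM and HOXB1 3.90 and 0.05 TPM, and the libraries lay too far apart to separate these genes by their means.

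For hPFE against hAFE, the question is how the HOX genes change as anterior foregut cells become pharyngeal. Of the 9 tested members 0 were called higher and 0 lower, by edgeR and by DESeq2, and 0 had an unadjusted p under 0.05. Of all genes 4.77% were called higher and 2.71% lower in hPFE, 7.49% in all. In all 9 members the libraries of the 2 stages overlapped. HOXB1 had a log2 fold change of -4.11 ± 1.84 (SE, adjusted p = 0.214 by edgeR) and HOTAIRM1 of -1.40 ± 1.05 (adjusted p = 0.448). On the other side HOXB4 had 2.80 ± 1.43 (adjusted p = 0.266) and HOXB3 1.71 ± 1.00 (adjusted p = 0.321), and HOXC4, which had counts in 1 library of each stage, had 1.88 ± 1.65 (adjusted p = 0.512). HOXA2, HOXA3, HOXA5 and HOXB2 lay between -0.29 and 0.70. Other members were called when 1 hAFE library was left out. Without hAFE replicate 2, hPFE was lower in HOTAIRM1 (-2.32, adjusted p = 0.00958 by edgeR) and HOXB1 (-5.10, adjusted p = 0.046). Without hAFE replicate 1, it was higher in HOXA2 (2.88, adjusted p = 0.041 by edgeR), HOXA3 (4.50, adjusted p = 0.0423) and HOXB3 (4.99, adjusted p = 0.0164), and the value of HOTAIRM1 changed sign (1.58, adjusted p = 0.0979).

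**Figure D4:**
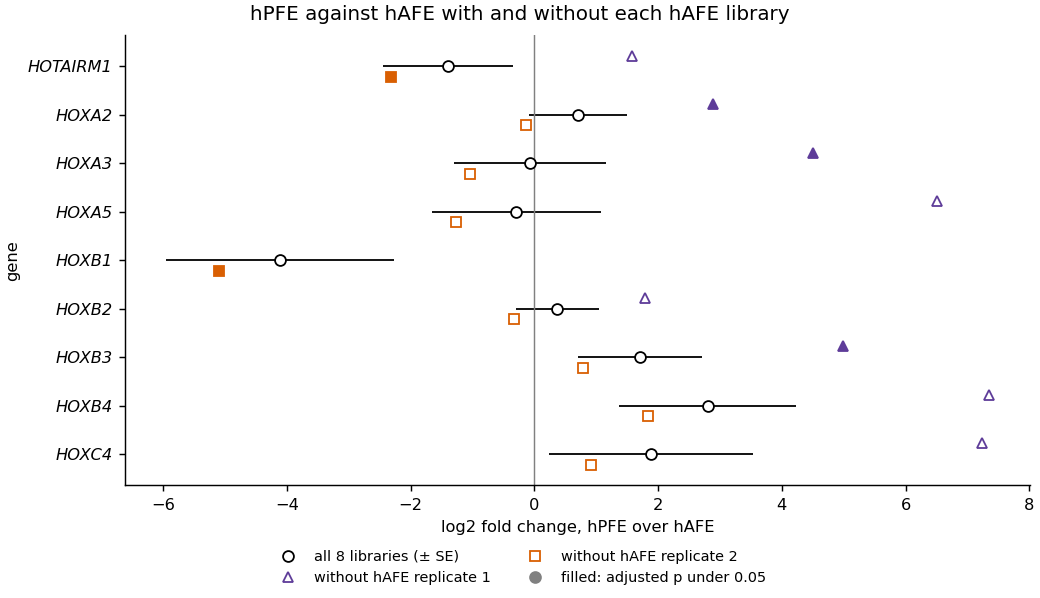
Log2 fold change of hPFE over hAFE for the 9 tested members, with all 8 libraries (circles, ± SE) and without hAFE replicate 1 (triangles) or hAFE replicate 2 (squares), filled where the adjusted p is under 0.05. No circle is filled, 3 triangles are filled on the right (HOXA2, HOXA3, HOXB3) and 2 squares on the left (HOTAIRM1, HOXB1), and HOXB1 has no triangle because it was not tested without hAFE replicate 1.

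Against hESC, the full span of the differentiation, 6 of the 9 tested members rose in hPFE and none fell. These were HOTAIRM1, HOXA2, HOXA3, HOXB2, HOXB3 and HOXB4, where 21.6% of all genes were called higher and 45.0% either way. HOTAIRM1 was at least 128.7-fold higher (adjusted p = 0.017 by edgeR), HOXB2 at least 73.2-fold (adjusted p = 0.00361) and HOXA3 at least 40.4-fold (adjusted p = 0.0366), each from 0 counts in hESC. HOXA2 was higher by a ratio of 124.5 (34.1 to 1034.7, adjusted p = 0.00405 by edgeR) against 2 counts. HOXB3 and HOXB4 stood against 1 count each, with ratios of 593.2 (106.0 to 23474.2, adjusted p = 0.00524) and 491.3 (87.7 to 19450.0, adjusted p = 0.022). HOXA5 had 1.15 and 0.361 CPM in hPFE against 0 and 0 in hESC and did not pass (adjusted p = 0.101 by edgeR). HOXC4 (adjusted p = 0.111) and HOXB1 (adjusted p = 0.507) did not pass either, and the libraries of both overlapped between hPFE and hESC.

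Leaving out a library changed which members were tested and called. HOXA3 lost its call whichever hPFE or hESC library was left out. HOXB4 lost its call without hPFE replicate 1 or either hESC library, HOTAIRM1 without either hESC library, and HOXB3 without hESC replicate 2. HOXA4, HOXA10, HOXA11 and HOXC4 gained a call without hPFE replicate 2. In each of these fits fewer of all genes were called higher than with all 8 libraries, most of all without an hESC library. HOXA2 and HOXB2 kept their calls each time, with adjusted p-values from edgeR of at most 0.043 and 0.0235.

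Counted without paralog group 1, the HOX RNA of the 2 late stages lay mostly in paralog groups 2 to 4 and in the HOXB and HOXA clusters. Summed over the HOX genes of paralog groups 2 to 13, without HOTAIRM1, TPM came to 0.14 and 0.11 at the hESC stage, 0.18 and 0.19 at hDE, 13 and 1.37 at hAFE and 23.6 and 10.9 at hPFE. Paralog groups 2 to 4 held 84.8% and 93.9% of this sum in the hPFE libraries, against 93.3% and 93.4% in the hAFE libraries, so most of it lay at the 3′ side in each. Paralog group 2 held 25.6% and 58.0% in hPFE against 48.2% and 80.3% in hAFE. Paralog group 3 held 34.3% and 29.5% in hPFE against 37.2% and 12.4% in hAFE, and paralog group 4 held 24.9% and 6.43% in hPFE against 7.86% and 0.73% in hAFE. In each of these 3 groups the shares of the hPFE and hAFE libraries overlapped, and in each stage 1 library gave the larger share to group 2 and the other to groups 3 and 4.

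By cluster, HOXA genes held 27.6% and 38.6% of this TPM sum in hPFE against 47.1% and 25.5% in hAFE. HOXB genes held 61.9% and 61.2% in hPFE against 49.8% and 67.9% in hAFE. HOXB held the largest part in all 4 libraries, and the shares of both clusters overlapped between the stages. HOXC and HOXD stayed low, with sums of 1.63 and 0.03 TPM for HOXC and of 0.86 and 0 TPM for HOXD in hPFE, against 0.38 and 0 TPM for HOXC and 0.02 and 0.09 TPM for HOXD in hAFE. Between genes of the same paralog group in hPFE, the TPM of HOXB2 over that of HOXA2 was 0.92 and 1.53, and the TPM of HOXB3 over that of HOXA3 was 8.76 and 2.00.

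**Figure D5:**
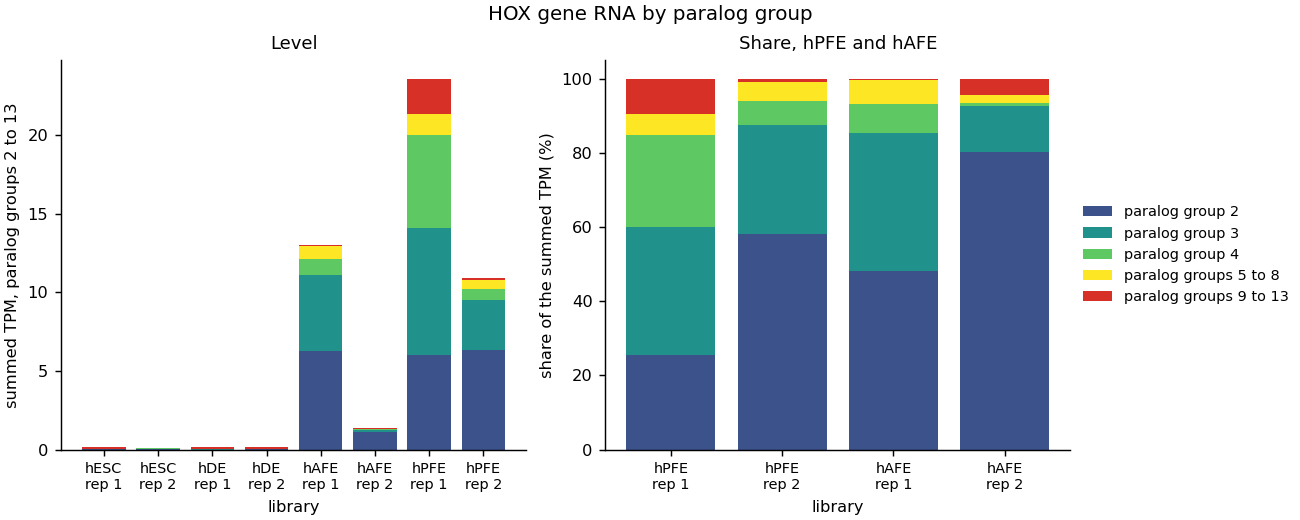
Left, TPM summed over the HOX genes of paralog groups 2 to 13 (HOTAIRM1 left out) in each of the 8 libraries, from hESC to hPFE, stacked by paralog group. Right, the same as a share of the sum for the hPFE and hAFE libraries. Paralog group 2 fills 25.6% and 58.0% of the hPFE bars, against 48.2% and 80.3% of the hAFE bars, and groups 9 to 13 show mainly in hPFE replicate 1.

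The remaining 32 rows stayed under a mean of 1 CPM at every stage. HOXA6 and HOXC9 had 0 counts in all 8 libraries, and 11 rows, these 2 included, had at most 3 counts in all. Posterior genes were found mostly in 1 library. Of the 16 rows of paralog groups 9 to 13, 13 had a count in hPFE replicate 1 (116 counts in all) and 3 in hPFE replicate 2 (5 counts), against 3 and 1 in the hAFE libraries. The best covered were HOXA10 with 27 and 0 counts in hPFE, HOXA11 with 16 and 0, HOXA13 with 14 and 2, HOXC12 with 13 and 0, HOXD10 with 11 and 0, and HOXB9 with 10 and 2. HOXA10 was thus at 1.64 and 0 CPM. The 12 rows of groups 5 to 8 showed 48 and 10 counts in hPFE against 32 and 1 in hAFE. HOXD13, found in hDE, had 0 and 3 counts in hAFE and 0 and 0 in hPFE.

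The 2 hPFE libraries also differed in markers of other cells. The 9 mesoderm and mesenchyme markers summed to 60.7 CPM in replicate 1, with none at 0, and to 14.7 CPM in replicate 2, with 2 at 0. HAND2 was at 38.8 and 0.794 CPM and PRRX1, a limb and craniofacial mesenchyme gene, at 7.59 and 0.216 CPM, while MEOX1 was at 10.4 and 13.2 CPM. Of the 7 neural markers with at least 10 counts over the pair 5 were higher in replicate 1, among them SOX1 at 1.21 and 0.144 CPM, PAX6 at 2.37 and 0.577 CPM, ELAVL3 at 0.911 and 0.144 CPM and STMN2 at 2.97 and 0.938 CPM. OTX2 went the other way at 6.19 and 30.2 CPM, so all 9 neural markers summed to 19.1 and 37.2 CPM, with 0 and 2 at 0. The 6 markers of surface ectoderm and amnion summed to 33.9 and 61.3 CPM and the 5 of neural crest to 6.13 and 14.2 CPM, with SOX10 and FOXD3 at 0. Replicate 1 was thus the library with the posterior HOX counts, the HAND2 and PRRX1 RNA and more RNA of these 4 neural genes, and the part other cells play in the HOX counts was not tested. The intestinal factors CDX1 and CDX2 were at 0.0607 and 0.0722 CPM and at 0.0607 and 0 CPM, which is 1 count or none. Replicate 2 held the highest mitochondrial share of all libraries, 19.2% against 14.9% in replicate 1.

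Of 17 other non-coding RNAs of the clusters, 2 passed the filter, HOXA-AS2, which lies beside HOXA3, and HOXB-AS1, beside HOXB2 and HOXB3. Both passed through their counts in hAFE and hPFE, so a higher value there than in hESC or hDE was bound to be found. By edgeR both rose in hAFE against hDE and in hPFE against hESC, where 15.0% and 21.6% of all genes did. In hPFE against hAFE neither passed, by edgeR or DESeq2, and 0 had an unadjusted p under 0.05. HOXA-AS2 had 6.08 and 0.366 CPM in hAFE against 0 and 0.0724 CPM in hDE (adjusted p = 0.0378 by edgeR), and 5.28 and 2.81 CPM in hPFE against 0 and 0 in hESC (adjusted p = 0.0133). Its adjusted p in hAFE against hDE was 0.155 without hAFE replicate 1, 0.18 without hDE replicate 1 and 0.153 without hDE replicate 2, and in hPFE against hESC it was 0.0597 without hESC replicate 1 and 0.0656 without hESC replicate 2. HOXB-AS1 had 0.727 and 0.366 CPM in hAFE against 0 and 0 in hDE (adjusted p = 0.0379 by edgeR), and 2.00 and 0.794 CPM in hPFE against 0 and 0 in hESC (adjusted p = 0.00711). Its adjusted p in hAFE against hDE was 0.112 without hAFE replicate 1, 0.122 without hDE replicate 1, 0.143 without hDE replicate 2 and 0.0506 with DESeq2. Exons of HOXA-AS2 and HOXA3, and of HOXB-AS1 and HOXB2 or HOXB3, overlap on opposite strands, and no source used here says whether the counting used the strand. HAGLR, in the HOXD cluster, was at 0.486 and 0.216 CPM in hPFE, against 1.45 and 0.0731 CPM in hAFE. HOTAIR, made from the HOXC cluster, was at 0.546 and 0 CPM in hPFE and at 0 in the other 6 libraries, and HOTTIP was at 0 in all 8.

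HOX proteins bind DNA together with the PBX and MEIS families, and several of these partners rose in hAFE. Of 8 cofactor genes tested, 4 rose and 1 fell in hAFE against hDE, where 15.0% and 15.2% of all genes did. The median log2 fold change was 1.21, against 0.01 over all genes. Fewer cofactor genes rose without hAFE replicate 1, hDE replicate 1 or hDE replicate 2, and so did fewer of all genes. In hPFE against hAFE 0 passed by edgeR or DESeq2, with 1 at an unadjusted p under 0.05 (median -0.11, against -0.03). MEIS2 had 273.6 and 75.5 CPM in hAFE against 1.16 and 0.724 CPM in hDE (adjusted p = 0.000346 by edgeR). MEIS1 had 217.5 and 174.4 CPM in hAFE against 4.01 and 3.19 CPM in hDE (adjusted p = 7.88e-05 by edgeR). PBX2 had a log2 fold change of -0.10 (adjusted p = 0.66 by edgeR) and did not pass. MEIS1 and MEIS2 were high in both hAFE libraries.

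Of 17 genes that make, carry, sense or break down retinoic acid, 7 rose and 2 fell in hAFE against hDE (median 0.53), where 15.0% and 15.2% of all genes did. Fewer of the 17 rose whichever hDE or hAFE library was left out, and so did fewer of all genes. In hPFE against hAFE 3 rose and 0 fell (median -0.19), where 4.77% and 2.71% of all genes did. These numbers changed whichever hAFE or hPFE library was left out. With no count filter they were 4 and 5, where 1923 and 1311 of 32980 genes rose and fell. With limma voom they were 0 and 0, where 360 and 87 of 17446 genes rose and fell. On the 4 libraries compared alone they were 0 and 0, where 46 and 6 of 15783 genes did. CYP26C1 and CYP26B1 rose in hAFE (adjusted p = 0.026 and 0.0323 by edgeR), each through the library named above. CYP26C1 without hAFE replicate 2 had an adjusted p of 0.118, and CYP26B1 without hAFE replicate 1 one of 0.652. Without hDE replicate 1 or hDE replicate 2 the adjusted p was 0.15 and 0.153 for CYP26C1 and 0.164 and 0.178 for CYP26B1. CYP26A1 did not pass in hAFE against hDE (adjusted p = 0.137 by edgeR), at 8.13 and 414.2 CPM in hAFE against 1856.4 and 1608.7 CPM in hDE. RARB, the receptor gene that retinoic acid itself switches on, had 0.12 and 0.113 CPM at the hESC stage, 23.3 and 19.1 at hDE, 149.2 and 81.5 at hAFE and 23.0 and 59.9 CPM at hPFE. In hPFE against hAFE ALDH1A3, which makes retinoic acid, was called with all 8 libraries, but not with limma voom or on the 4 libraries compared alone. It rose to 18.4 ± 12.2 CPM in hPFE, against 0.517 ± 0.110 CPM in hAFE (adjusted p = 0.00631 by edgeR over all 8 libraries). RXRG and RARG also passed there (adjusted p = 0.0347 and 0.043), and both calls were lost without hAFE replicate 1 (0.103 and 0.123), hAFE replicate 2 (0.0628 and 0.0866) or hPFE replicate 1 (0.0647 and 0.0876).

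Among 8 genes known to act upstream of HOX clusters, 6 were tested, and 1 rose in hAFE against hDE, where 15.0% of all genes did. In hPFE against hAFE 0 passed by edgeR or DESeq2, and 0 had an unadjusted p under 0.05. The one that rose was KAT6A, a histone acetyltransferase that acts on Hox genes in mice (log2 fold change 0.51, adjusted p = 0.0198 by edgeR), whose call was lost without hAFE replicate 2 (0.0913) or either hDE replicate (0.0744 and 0.147). CDX4, a caudal gene, was at 2.58 and 2.60 CPM in hESC and at 0 or 1 count in the other 6 libraries. Of 15 Polycomb and H3K27 demethylase genes, 4 rose and 0 fell in hAFE against hDE (median 0.36), where 15.0% and 15.2% of all genes did. Fewer rose without hDE replicate 1, hDE replicate 2 or hAFE replicate 1, and so did fewer of all genes. With no count filter 2 fell, where 3025 of 32980 genes did. On the 4 libraries compared alone 2 fell as well, where 2687 of 15570 genes did. On log2(TPM + 0.1) and log2(TPM + 1) 12 rose each time, where 7463 and 6457 of 17446 genes did. The medians of all genes there were 0.792 and 0.496. EZH2, the main H3K27 methyltransferase, had 81.3 and 66.1 CPM in hAFE against 26.5 and 29.7 CPM in hDE (adjusted p = 0.00129 by edgeR). In hPFE against hAFE 0 rose and 3 fell (median -0.36), where 4.77% and 2.71% of all genes did, among them JARID2 at 44.4 and 34.0 CPM in hPFE against 103.5 and 111.4 CPM in hAFE (adjusted p = 0.00548 by edgeR).

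Among 11 genes beside the clusters, 7 were tested, and 3 rose in hAFE against hDE, where 15.0% of all genes did. Fewer rose without hDE replicate 1 or hDE replicate 2, and so did fewer of all genes. On log2(TPM + 0.1) and log2(TPM + 1) 6 rose each time, where 7463 and 6457 of 17446 genes did. SKAP2, an adaptor gene beyond the 3′ end of the HOXA cluster, had 144.3 and 14.4 CPM in hAFE against 2.58 and 3.40 CPM in hDE (adjusted p = 0.009 by edgeR), and 24.5 and 21.5 CPM in hPFE. Its call was lost without hDE replicate 1 (adjusted p = 0.0792) or hDE replicate 2 (adjusted p = 0.0712). SKAP2 was thus higher in the same hAFE library as HOTAIRM1, and its hPFE libraries lay between the 2 hAFE libraries. EVX1, beyond the other end of the cluster at HOXA13, was at 0 in all 8 libraries. CBX5 near HOXC4 also rose in hAFE, at 789.1 and 671.5 CPM against 430.4 and 397.7 CPM in hDE (adjusted p = 0.00406 by edgeR). TTLL6 near HOXB13 rose to 1.39 and 1.32 CPM in hAFE, against 0 and 0.0724 CPM in hDE (adjusted p = 0.00492 by edgeR). Both hAFE libraries were alike in CBX5 and TTLL6.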

How the data were processed

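Strand-specific, ribosomal RNA depleted libraries were sequenced in pairs, per the labels' protocols. The deposited expected counts are the authors' RSEM estimates per gene, and the deposited TPM values are scaled by each gene's effective length, as the columns show per the file headers. The submitters' processing notes name RSEM, DESeq2 and hg38. The aligner and the strand setting of the counting are not given in the sources used here. Names and positions are from GENCODE 29. The 40 rows, the gene lists and the markers were chosen with earlier results of these data known. Some genes are not reported here. Expected counts were rounded, filtered with filterByExpr and fitted over all 8 libraries with 4 stage terms in edgeR 4.0.16 (TMM, 4 residual degrees of freedom) under R 4.3.3. Each SE was worked back from the log2 fold change and its F statistic (their ratio, with F under the root). Fold bounds set 3 counts over the 2 libraries of the stage at 0. Ratios against fewer counts and between replicates carry exact 95% binomial intervals. Replicate log ratios use a prior count of 0.5. Values in every library are given for members at 1 CPM or more in a stage. From each other list the rule took up to 3 called genes with the largest change and the best expressed one not called, shown here in part. Alternatives used DESeq2 1.42.0, limma 3.58.1, other scalings and filters, and left out each library. The fit was tested on simulated data.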

Additional observations from a re-analysis of the deposited data

How the results depend on the processing

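The 10 member calls of hAFE against hDE and hPFE against hESC kept their direction in every alternative in which the gene was tested. Each stood against at most 3 counts over the 2 libraries of hDE or hESC, so the direction could hardly have turned. The number of members called higher in hAFE against hDE was 4, with 2 on log2(TPM + 1), 9 with no count filter and 1 to 8 with a library left out. In hPFE against hESC it was 6, with 14 with no count filter and 2 to 9 with a library left out. In hPFE against hAFE it was 0 each way, with 4 higher and 2 lower with no count filter, and 0 to 3 higher and 0 to 2 lower with a library left out. In hDE against hESC it was 0, with 1 (HOXD13) with no count filter. With no count filter 38 members and 32980 genes were tested. Of all genes 3225 were then called higher in hAFE against hDE, 4405 in hPFE against hESC and 3838 in hDE against hESC. In hPFE against hAFE 1923 were called higher and 1311 lower. Leaving out a library also changed how many members were tested. On log2(TPM + 1) the median of all genes lay at 0.496 in hAFE against hDE, where 6457 genes were called higher and 818 lower (2609 and 2658 otherwise), at 0.362 in hPFE against hESC, 0.137 in hPFE against hAFE and -0.268 in hDE against hESC. HOXB2 kept its calls in all 14 alternatives of hAFE against hDE and hPFE against hESC, and HOXA2 in those of hPFE against hESC. In hPFE against hAFE, leaving out a library moved log2 fold changes through 0, over -2.32 to 1.58 for HOTAIRM1, -0.13 to 2.88 for HOXA2, -1.04 to 4.50 for HOXA3, -1.36 to 6.51 for HOXA5 and -0.33 to 1.79 for HOXB2. There HOXA3 was also positive at 0.83 on log2(TPM + 0.1), 0.03 on log2(TPM + 1), 1.53 with voom and 0.93 with the replicate block, and HOXA5 at 0.12 with length offsets, 0.96 and 0.16 on the TPM scales, 1.35 with voom and 0.25 with the replicate block. The range was -3.00 to 0.28 for HOXA2 in hDE against hESC and -3.00 to 5.36 for HOXB1 in hPFE against hESC. The cause was not tested. With the replicate block, 5, 6 and 0 members were called higher in hAFE against hDE, hPFE against hESC and hPFE against hAFE. Over all genes tested, the difference between replicates 1 and 2 was compared between stages, with correlations from -0.043 to 0.061. Values near 0 cannot show whether same-numbered libraries share a culture or a batch, and the labels do not say. The fit of hDE against hESC on its own 4 libraries tested no member. The other 31 rows had too few counts to be tested, and of these only HOXD13 in hDE against hESC, HOXA10 and HOXA11 in hPFE against hAFE, and HOXA4, HOXA10, HOXA11, HOXC12 and HOXD10 in hPFE against hESC were called with no count filter.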
